A study of Homo sapiens with 16 samples.

Results

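The 8 interferon regulatory factor genes read here, IRF1, IRF2, IRF3, IRF4, IRF5, IRF7, IRF8 and IRF9, were examined for binding of p65 in colorectal cancer cells, out of 62062 genes of GENCODE 44 on the chromosomes read. They were named as a gene family with earlier results of these data known, and no measured value enters the rule. The chromatin of each was read from 50 kb upstream of the gene to 10 kb downstream of it in GRCh38, in bins of 200 bp. This gave 3556 bins over the 8 genes. The ChIP-Seq was made in HT29 and SW480, both human colorectal adenocarcinoma lines. Each line had been stably transfected either with an empty vector (mock) or with estrogen receptor beta (ERβ), giving the groups HT29 mock, HT29 ERβ, SW480 mock and SW480 ERβ. All cells of all 4 groups had received TNFα at 30 ng/ml for 30 min and were double cross-linked with DSG and formaldehyde, so no comparison with unstimulated cells is possible. Each group had 3 ChIP libraries and 1 input library. The study's methods place the inputs of the ERβ lines in another series, while the 2 read here are listed among the samples of this one. Whether they are the same libraries is not stated. Each group is 1 stable line, so that ERβ and any other difference between a stable line and its mock counterpart cannot be told apart.

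IRF proteins are transcription factors that recognize pairs of GAAA elements and switch interferon and interferon-response genes on or off. IRF3, IRF5 and IRF7 act downstream of sensors of microbial nucleic acids, IRF9 is the DNA-binding part of the complex that answers type I interferon, IRF1 is an early response gene, IRF2 often opposes IRF1, and IRF4 and IRF8 serve mainly in lymphoid and myeloid cells. p65 (RELA) is the NFκB subunit that enters the nucleus after TNFα and binds κB sites, and IRF1 is a textbook NFκB target with both a κB site and a GAS element, the site bound by STAT dimers, in its promoter.

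In all 12 ChIP libraries p65 signal was high at well-known targets. The signal is the density of sequenced fragments over a position, scaled to 10000000 tags per library and averaged over a bin. At the start of NFKBIA it lay between 10.4 and 36.4, and at that of TNFAIP3 between 9.11 and 30.7, against at most 1.09 in the inputs. The labels of the ERβ lines were checked on ESR2, the gene for ERβ, since an introduced cDNA has no introns. The ratio of signal over ESR2 coding exons to its introns was 4.23 to 7.37 in the HT29 ERβ libraries against 1.08 to 1.35 in HT29 mock, and 2.43 to 3.11 in SW480 ERβ against 1.31 to 1.63 in SW480 mock. Enrichment differed between libraries of the same group. The mean signal over all 25545 tested bins of the genome was 2.70 and 2.34 in replicate 1 of HT29 mock and HT29 ERβ against 1.23 to 1.499 in the other HT29 libraries, and 1.68 in replicate 1 of SW480 ERβ against 2.60 and 2.77 in replicates 3 and 2. SW480 mock stood at 1.16 to 1.39. The tracks hold scaled densities and no read numbers, so the number of reads behind a value is unknown here.

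The DNA of the main p65 sites around these genes is printed first, because the sites differ in which known elements they hold. All sequences are the plus strand of GRCh38, 5′ to 3′. Capitals mark matches on either strand to the κB consensus, to the IRF element GAAANNGAAA, to the GAS element TTCNNNGAA, or to the AP-1 element TGACTCA or TGAGTCA. The start of IRF1 (chr5:132490801-132491000), which held the highest mean over the 12 libraries of any site of the family, has a κB match followed by a GAS match. The bin 6.33 kb upstream of IRF1 (chr5:132497001-132497200) has an IRF match and a GAS match, while the bins 7.53 kb upstream (chr5:132498201-132498400) and 31.5 kb downstream (chr5:132459201-132459400) have none of the 4. Adjoining listed bins of the same sites, not printed, do hold matches. The bin from 132498401 has an AP-1 match, and the bin from 132459401, beside the 31.5-kb bin, has a κB match. The site 15.3 kb downstream (chr5:132475511-132475600) has a pair of κB matches. The stretch shown from just upstream of the start of IRF2 (chr4:184474711-184474800) has a GAS match only, while the second bin of that site, not printed because it overlaps a UTR, holds a κB match and an IRF match, and the site beyond its 3′ end (chr4:184383601-184383690) has an AP-1 match next to overlapping κB matches. κB matches alone lie in an intron of IRF5 (chr7:128938841-128938930), in an intron of PRMT1 upstream of IRF3 (chr19:49678441-49678530) and in an intron of PSME1 upstream of IRF9 (chr14:24136491-24136580).
IRF1 start: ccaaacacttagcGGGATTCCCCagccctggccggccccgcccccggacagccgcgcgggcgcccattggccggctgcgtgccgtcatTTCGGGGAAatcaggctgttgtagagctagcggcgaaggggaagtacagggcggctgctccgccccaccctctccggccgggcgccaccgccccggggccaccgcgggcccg
IRF1 6.33 kb upstream: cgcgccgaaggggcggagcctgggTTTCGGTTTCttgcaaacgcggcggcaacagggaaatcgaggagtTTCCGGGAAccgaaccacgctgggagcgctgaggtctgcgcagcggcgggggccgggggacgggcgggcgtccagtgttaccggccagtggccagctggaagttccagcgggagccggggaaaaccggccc
IRF1 7.53 kb upstream: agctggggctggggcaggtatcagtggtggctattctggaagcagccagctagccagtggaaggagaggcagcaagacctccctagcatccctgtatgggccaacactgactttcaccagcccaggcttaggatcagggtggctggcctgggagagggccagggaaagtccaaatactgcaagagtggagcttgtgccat
IRF1 31.5 kb downstream: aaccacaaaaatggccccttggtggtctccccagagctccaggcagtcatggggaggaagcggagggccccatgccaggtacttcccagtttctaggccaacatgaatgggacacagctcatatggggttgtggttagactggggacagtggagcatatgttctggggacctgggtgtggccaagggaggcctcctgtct
IRF1 15.3 kb downstream: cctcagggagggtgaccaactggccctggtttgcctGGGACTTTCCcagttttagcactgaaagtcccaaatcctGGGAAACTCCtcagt
IRF2 start: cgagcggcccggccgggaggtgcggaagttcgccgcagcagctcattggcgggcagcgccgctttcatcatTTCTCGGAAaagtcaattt
IRF2 3′ end: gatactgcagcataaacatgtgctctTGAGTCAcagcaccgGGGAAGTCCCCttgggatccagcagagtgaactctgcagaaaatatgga
IRF5 intron: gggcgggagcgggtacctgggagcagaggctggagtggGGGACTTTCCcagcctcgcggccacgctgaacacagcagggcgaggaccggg
PRMT1 intron, IRF3 window: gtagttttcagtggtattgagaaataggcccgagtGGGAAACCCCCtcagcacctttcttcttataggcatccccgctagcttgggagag
PSME1 intron, IRF9 window: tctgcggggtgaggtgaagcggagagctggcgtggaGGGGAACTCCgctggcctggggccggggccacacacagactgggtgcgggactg

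A bin was listed as bound in a group where the mean of its 3 libraries was at least 2 and at least 4 times the input of the same group. By this rule p65 was bound in the windows of IRF1, IRF2, IRF3, IRF5 and IRF9. No bin was listed for IRF4, IRF8 or IRF7, and the last of these windows could not be read. Of the 3556 bins, 22 were listed in HT29 mock (0.619%), 13 in HT29 ERβ (0.366%), 9 in SW480 mock (0.253%) and 32 in SW480 ERβ (0.9%). Over all bins of the genome the same rule listed 0.0404%, 0.0268%, 0.00989% and 0.0632%, so the windows held a higher share in every group. The windows of 25 other interferon pathway genes listed 0.33%, 0.284%, 0.0845% and 0.4%. A share above that of the genome was therefore not particular to the IRF windows. The order of the 4 groups in the IRF windows was the same as in the whole genome. Without its replicate 1, HT29 ERβ listed 7 bins. The inputs themselves differed, with means over all tested bins of 0.44 in HT29 mock, 0.503 in HT29 ERβ, 0.606 in SW480 mock and 0.451 in SW480 ERβ. With the mean of the mock and ERβ inputs of the line in place of the group's own input, the counts were 19, 15, 11 and 26 in that order. Any group listed 37 bins, 1.04% against 0.0829% of the genome and 0.515% in the pathway windows. IRF1 alone held 22 of the 37, in 642 of the 3556 bins. IRF3 held 5, IRF9 held 4, and IRF2 and IRF5 held 3 each. Of the bins listed in any group, SW480 ERβ listed 86.5% in the IRF windows, against 76.2% over the genome and 77.6% in the windows of 25 other interferon pathway genes. SW480 mock listed 24.3%, against 11.9% and 16.4%. At the limits of the rule, the lead bin of IRF2, 150 bp upstream of its start, stayed out in SW480 mock with a mean of 2.94 that was 3.13 times its input, the bin next to it came in with a mean of 2.71 that was 4.07 times its input, and the intron of IRF5 in SW480 mock came in with a mean of 2.04 that was 5.999 times its input.

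The 37 bins formed 14 sites, a site being a run of listed bins with at most 1 unlisted bin between them. All 14 were listed in SW480 ERβ, 7 in HT29 mock, 6 in HT29 ERβ and 5 in SW480 mock. The 4 sites listed in every group were the start and the upstream site of IRF1, the start of IRF2 and the intron of IRF5. Another 6 were listed in SW480 ERβ alone, 4 of them around IRF1, 1 beyond IRF2 and 1 in an intron of IRF3. No site was listed in another group alone. In the windows of the 25 other pathway genes, 31 sites were formed. Of these 27 were listed in SW480 ERβ, 20 in HT29 mock, 18 in HT29 ERβ and 9 in SW480 mock. There 9 were listed in SW480 ERβ alone, 1 in HT29 mock alone and 1 in HT29 ERβ alone. Sites were not formed over the whole genome, so the site counts are not read as a result about the family. A κB match lay in the strongest bin, by the mean over the 12 libraries, of 7 of the 14 sites, a GAS match in 3, an AP-1 match in 1 and an IRF match in none. Among all 37 listed bins, 12 held a κB match, 5 a GAS match, 2 an AP-1 match and 2 an IRF match. A κB match is held by 2.91% of all 200-bp bins of the genome and by 32% of the tested bins. For GAS these shares are 8.13% and 6.29%, for AP-1 2.99% and 8.81%, and for the IRF element 4.09% and 2.91%.

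**Figure D1:**
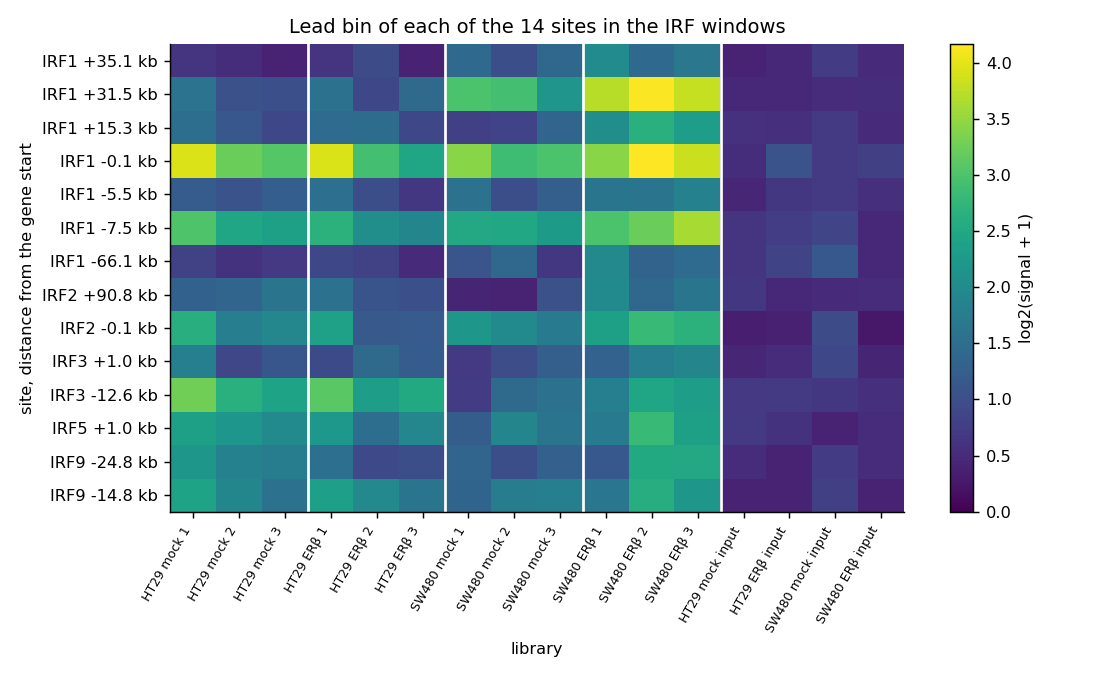
Heat map of log2(signal + 1) in the strongest bin of each of the 14 sites, with sites in order of gene and distance from the gene start and with the 12 ChIP and 4 input libraries as columns. The sites at the IRF1 start and 7.5 kb upstream are bright in all 12 ChIP libraries, the site 31.5 kb downstream is bright in the 6 SW480 libraries, and the input columns are dark throughout.

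Groups were compared on log2(signal + 1) with limma over the 25545 bins of the genome whose mean over the 12 ChIP libraries was at least 0.75 and at least 2 times that of the inputs, a choice blind to the groups. Of these bins 52 lay in the IRF windows, 28 of them around IRF1. Between the mock lines, 3 of the 52 were higher in SW480 and 12 lower, 28.8% in all, against 30.9% of all tested bins (6.38% higher and 24.5% lower). Between the ERβ lines, 16 were higher in SW480 and none lower, 30.8% against 39.9% of all tested bins (30% higher and 9.95% lower). ERβ against mock gave no call in HT29, where 0.00783% of all bins were called (0.00391% higher and 0.00391% lower) and 1 of the 52 had an unadjusted p below 0.05. In SW480, 11 of the 52 were higher with ERβ and none lower, 21.2% against 18.8% of all bins (18.8% higher and 0.00391% lower). The effect of ERβ differed between the lines at 5 of the 52, 9.62% against 7.09%. Adjoining bins can belong to the same peak, and IRF1 alone held 13 of the 16 calls between the ERβ lines and 8 of the 11 for ERβ in SW480. Between the mock lines it held 3 of those higher and 4 of those lower. In this fit the shares called lie near those of the whole genome or below them and are not read as a result about the family.

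The median over all tested bins differed between groups. Over all tested bins the median log2 difference was -0.29 for SW480 mock minus HT29 mock, 0.29 for SW480 ERβ minus HT29 ERβ, -0.11 for HT29 ERβ minus mock and 0.43 for SW480 ERβ minus mock. The corresponding medians of the 52 bins were -0.32, 0.40, -0.16 and 0.59. With every library centered on its median, the 52 bins split into 7 higher and 8 lower between the mock lines and 13 higher and 4 lower between the ERβ lines, and 5 were called for ERβ in SW480, while all tested bins split into 5311 higher and 4604 lower, 6504 higher and 6209 lower, and 1224 higher and 391 lower. With the replicate number as a block, ERβ in SW480 was called at 36 of the 52, 69.2% against 47.8% of all tested bins, and the difference of the ERβ effects at 31, 59.6% against 40.2%. Leaving out replicate 1 of both HT29 groups, which stood apart in mean signal, gave 28 calls between the ERβ lines (53.8% against 50.2% of all tested bins), 30 for ERβ in SW480 (57.7% against 34.8%) and 12 for the difference of effects (23.1% against 13.4%).

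Single libraries moved these counts by more than 1.5 times. Between the mock lines, 15 calls became 8 without HT29 mock replicate 1, 7 without SW480 mock replicate 1 and 9 without SW480 mock replicate 3. Over all tested bins the share called went from 30.9% to 17.8%, 21.8% and 22.9% in these fits. Between the ERβ lines, 16 became 9 without HT29 ERβ replicate 2 or 3 or SW480 ERβ replicate 3, and 10 without SW480 ERβ replicate 2, while the share of all bins went from 39.9% to between 30.4% and 34%. For ERβ in SW480, 11 became 25 without SW480 ERβ replicate 1, 20 without HT29 ERβ replicate 1, 19 without HT29 mock replicate 1, 6 without SW480 ERβ replicate 2 or SW480 mock replicate 1, 5 without SW480 mock replicate 2 and 4 without SW480 ERβ replicate 3. All tested bins moved the same way in these fits, from 18.8% to 33.3%, 25.4% and 25.5% in the first 3 of these fits and to between 8.4% and 10.2% in the others. For the difference of effects, 5 became 22 without HT29 ERβ replicate 1, 12 without SW480 ERβ replicate 1, 3 without SW480 ERβ replicate 2, 2 without SW480 mock replicate 1 and 0 without HT29 ERβ replicate 2 or 3, SW480 mock replicate 2 or SW480 ERβ replicate 3. Over all bins 7.09% became 25.1% and 19.5% in the first pair of these fits and 2.33% to 3.59% in the others.

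Each gene was also represented by its lead bin, the bin of its window with the highest mean over the 12 libraries, which uses no group. The lead bins of IRF1, IRF2, IRF3, IRF5 and IRF9 were tested, and those of IRF4, IRF7 and IRF8 were not, IRF4 for its input and the other 2 for their level. Between the mock lines 1 of the 5 differed, in the IRF3 window (20% against 30.9% of all tested bins), and between the ERβ lines another 1, at the start of IRF2 (20% against 39.9%). With ERβ, none of the 5 passed in HT29, none at an unadjusted p below 0.05 either, and none in SW480, where the bins of IRF3 and IRF5 had an unadjusted p below 0.05. In SW480 all 5 differences were above 0, with a median of 0.71, and in HT29 4 of 5 were below 0, with a median of -0.30. The difference between these effects was above 0 at all 5, with a median of 1.02 and no call, and 3 (IRF2, IRF3 and IRF5) had an unadjusted p below 0.05. The block changed this: with it all 5 were called higher with ERβ in SW480 (adjusted p of 0.000116 to 0.0344), and 4 had a larger ERβ effect in SW480 than in HT29 (0.00111 to 0.00629), all but IRF9 (0.152). With the block 47.8% of all tested bins were called for ERβ in SW480 and 40.2% for the difference of the effects. With the libraries centered, none of the 5 was called for ERβ in SW480, beside 6.32% of all tested bins. Without SW480 ERβ replicate 1, 2 were called for ERβ in SW480 (33.3% of all bins), and without HT29 ERβ replicate 1, 2 between the ERβ lines (42.5%) and 3 for the difference of effects (25.1%). Without replicate 1 of both HT29 groups, 4 were called for ERβ in SW480, 2 between the ERβ lines and 1 for the difference, beside 34.8%, 50.2% and 13.4% of all tested bins.

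**Figure D2:**
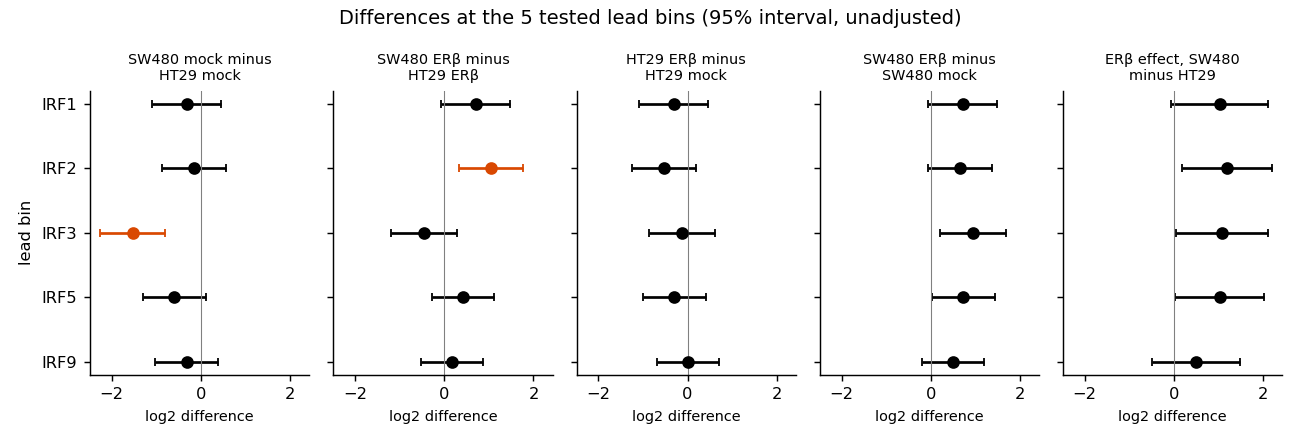
Log2 differences at the 5 tested lead bins for the 4 comparisons of groups and for the difference of the ERβ effects, with 95% intervals that are not adjusted for the number of bins. Orange points passed an adjusted p of 0.05, which are IRF3 between the mock lines (-1.53) and IRF2 between the ERβ lines (1.04).

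IRF1 lies on the minus strand of chromosome 5, with its main start at position 132490773. Its start region, 6 listed bins from 132490401 to 132491600, held the strongest signal of the family in 3 of the 4 groups. In the lead bin, 127 bp upstream of the start, the libraries read 14.5, 8.36 and 7.37 in HT29 mock (10.1 ± 3.86, mean ± SD, n = 3) and 14.3, 6.54 and 4.53 in HT29 ERβ (8.47 ± 5.17). They read 9.75, 6.33 and 6.90 in SW480 mock (7.66 ± 1.83) and 9.74, 17.0 and 13.3 in SW480 ERβ (13.3 ± 3.61). The inputs were 0.458 to 1.10. Replicate 1 was the highest library of both HT29 groups, and all 4 groups overlapped. The log2 difference was 0.71 for ERβ in SW480 (95% interval -0.05 to 1.48, adjusted p = 0.173 by limma), 0.70 between the ERβ lines (-0.07 to 1.47, 0.143), -0.31 for ERβ in HT29 (-1.08 to 0.46, 1) and -0.32 between the mock lines (-1.09 to 0.45, 0.556). Within these intervals no difference was detectable at the lead bin in the fit without a block, where the adjusted p of the SW480 effect was 0.005 with it. The lead bin was called between the ERβ lines in 3 of 15 alternatives, namely the filter at a mean of 0.5 with no input limit (0.0499), the fit without HT29 ERβ replicate 1 (0.0104) and that without replicate 1 of both HT29 groups (0.00287). The outermost of the 6 bins upstream, from 132491201 and 132491401, were called lower in SW480 mock than in HT29 mock, at -1.12 (SE 0.35, adjusted p = 0.00868) and -1.08 (SE 0.33, 0.00784). The first of these calls was lost without HT29 mock replicate 1 (0.0524).

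**Figure D3:**
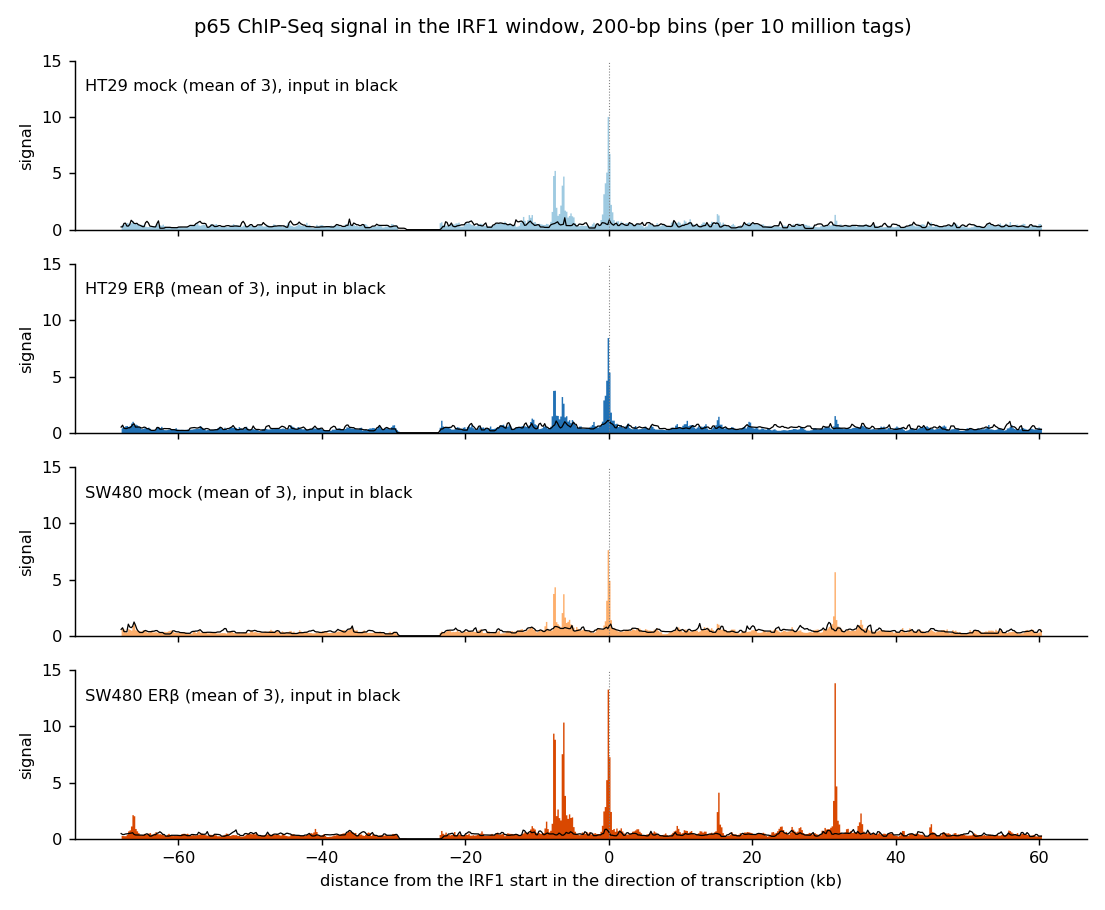
Group mean of the p65 signal per 200-bp bin (per 10000000 tags) over the IRF1 window, against distance from the IRF1 start in kb, with the input of each group as a black line. The start and the cluster 6 to 8 kb upstream stand out in all 4 groups and the site 31.5 kb downstream in both SW480 groups, and a stretch upstream carries no signal in any library, inputs included.

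Upstream of the main start of IRF1, 8 bins between 132496801 and 132498600 were listed in at least 1 group. They lay inside the annotated extent of the gene, which reaches 132508719. Of these 8 bins, 5 were listed in HT29 mock, 3 in HT29 ERβ, 3 in SW480 mock and 7 in SW480 ERβ, with unlisted bins between those of each group. At the bin 7.53 kb upstream, the strongest of the 8 by the mean over the 12 libraries, HT29 mock read 7.09, 4.54 and 4.19 (5.27 ± 1.58) and HT29 ERβ read 5.41, 3.17 and 2.76 (3.78 ± 1.43). SW480 mock read 4.69, 4.57 and 3.80 (4.36 ± 0.483) and SW480 ERβ read 6.95, 8.31 and 11.3 (8.86 ± 2.23), with inputs of 0.374 to 0.82. All SW480 ERβ libraries stood above all SW480 mock libraries there, and 1 HT29 mock library reached into their range. The log2 difference for ERβ in SW480 was 0.86 (SE 0.38, adjusted p = 0.0959, or 0.00058 with the block). SW480 ERβ was 1.06 higher than HT29 ERβ (SE 0.38, 0.0197), a call lost without HT29 ERβ replicate 2 or 3 (0.0742 and 0.098) or SW480 ERβ replicate 3 (0.13). The mean signal over all tested bins was likewise higher in the SW480 ERβ libraries (1.68 to 2.77) than in SW480 mock (1.16 to 1.39), and its part in this and the following differences was not tested. The bin 6.33 kb upstream, which has the IRF and GAS matches printed above, separated the groups further. It read 6.50, 3.72 and 4.09 in HT29 mock (4.77 ± 1.51), 4.22, 1.62 and 2.03 in HT29 ERβ (2.63 ± 1.40), 3.05, 3.30 and 4.87 in SW480 mock (3.74 ± 0.988) and 9.36, 9.17 and 12.6 in SW480 ERβ (10.4 ± 1.94). Here every SW480 ERβ library was above each of the other 9.

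This bin and those named below away from the lead bins were picked after their values were seen, while their p-values are adjusted over all tested bins. A site listed in SW480 ERβ alone was chosen through that group. Tests of SW480 ERβ at such a site use the values that chose it and give no separate support. The log2 difference of the 6.33-kb bin was 1.70 between the ERβ lines (SE 0.38, adjusted p = 0.000141) and 1.27 for ERβ in SW480 (SE 0.38, 0.0118), while ERβ in HT29 gave -0.71 with no call. The ERβ effects differed by 1.98 (SE 0.54, 0.0150). The call between the ERβ lines held in all 14 alternatives (at most 0.00409). The SW480 call was lost without SW480 mock replicate 1 or 2 (0.0848 and 0.0674) or SW480 ERβ replicate 3 (0.0964), and that of the difference without HT29 ERβ replicate 2 or 3 (0.0756 and 0.0509), SW480 mock replicate 1 or 2 (0.0656 and 0.0558) or SW480 ERβ replicate 3 (0.0607).

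Downstream of IRF1 the lines parted. The site 31.5 kb from the start, 3 listed bins from 132459001 to 132459600 inside the annotated extent of the gene (132440440 to 132508719) but outside its main transcript, read 2.00, 1.05 and 1.03 in HT29 mock (1.36 ± 0.555) and 1.97, 0.879 and 1.72 in HT29 ERβ (1.52 ± 0.572). It read 6.97, 6.60 and 3.53 in SW480 mock (5.70 ± 1.89) and 12.2, 16.6 and 12.9 in SW480 ERβ (13.9 ± 2.37), beside 13.3 at the IRF1 start. All 6 SW480 libraries stood above all 6 HT29 libraries, and the SW480 groups did not overlap. The log2 difference between the lines was 1.48 in mock cells (SE 0.37, adjusted p = 0.00113) and 2.58 in ERβ cells (SE 0.37, 1.17e-08), both called in all 14 alternatives. The signal was 1.19 higher in SW480 ERβ than in SW480 mock (SE 0.37, 0.0164), a call lost without SW480 mock replicate 3 (0.131) or SW480 ERβ replicate 2 or 3 (0.102 and 0.0538). In HT29 the difference was 0.09, and the ERβ effects differed by 1.09, with no call (0.162, or 0.00287 with the block).

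The site 15.3 kb downstream, with a pair of κB matches, was listed in SW480 ERβ alone. It read 1.85, 1.19 and 0.872 in HT29 mock, 1.74, 1.78 and 0.865 in HT29 ERβ, 0.726, 0.783 and 1.56 in SW480 mock and 3.16, 5.23 and 4.04 in SW480 ERβ (4.15 ± 1.04). The SW480 ERβ libraries stood above the other 9, which overlapped among themselves. It was 1.35 higher in SW480 ERβ than in SW480 mock (SE 0.30, adjusted p = 0.000607) and 1.07 higher than in HT29 ERβ (SE 0.30, 0.00269), and both calls held in all 14 alternatives. The ERβ effects differed by 1.26, with no call (0.0532, or 0.000373 with the block). Another 3 sites of the window barely passed the listing rule, and in SW480 ERβ alone. The bin 35.1 kb downstream had means of 0.445, 0.615, 1.45 and 2.30 in HT29 mock, HT29 ERβ, SW480 mock and SW480 ERβ. It was higher in SW480 by 0.75 between the mock lines (SE 0.25, adjusted p = 0.016), a call lost with the 10-kb input taken off (0.0622) and without HT29 mock replicate 3 (0.0658) or SW480 mock replicate 1 or 3 (0.0737 and 0.064). It passed the filter for testing only through its level in SW480 ERβ, so no test of that group is given. The bin 5.53 kb upstream had means of 1.26, 1.16, 1.46 and 2.22 in that order. The bin 66.1 kb upstream of the main start, at the start of the DNA repair gene RAD50, had means of 0.630, 0.679, 1.12 and 2.05 and was not tested, since its mean over the 12 libraries was under 2 times that of the inputs.

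IRF2 lies on the minus strand of chromosome 4 (184385702 to 184474558), and its lead bin was at its own start, 150 bp upstream. HT29 mock read 5.11, 2.45 and 2.83 (3.46 ± 1.44), HT29 ERβ read 4.22, 1.24 and 1.29 (2.25 ± 1.71), SW480 mock read 3.63, 2.92 and 2.26 (2.94 ± 0.685) and SW480 ERβ read 4.18, 6.02 and 5.41 (5.21 ± 0.935). The SW480 groups did not overlap, and replicate 1 of HT29 ERβ lay inside the range of SW480 ERβ. The signal was 1.04 higher on the log2 scale in SW480 ERβ than in HT29 ERβ (SE 0.36, adjusted p = 0.0158). This call was lost without HT29 ERβ replicate 2 or 3 (0.116 and 0.101) or SW480 ERβ replicate 2 or 3 (0.0700 and 0.0564), and it stood with the libraries centered (0.76, adjusted p = 0.00363). For ERβ against mock the difference was 0.66 in SW480 (95% interval -0.06 to 1.38, 0.179) and -0.53 in HT29 (-1.25 to 0.19, 1), and between the mock lines -0.15 (-0.87 to 0.57, 0.788). With the block, the adjusted p of the SW480 effect was 0.00717.

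The second IRF2 site, just past the 3′ end of the gene and 90.9 kb from its start, was weak and was listed in SW480 ERβ alone. It read 1.44, 1.58 and 2.03 in HT29 mock, 1.95, 1.12 and 1.02 in HT29 ERβ, 0.345, 0.321 and 1.05 in SW480 mock and 2.99, 1.65 and 2.09 in SW480 ERβ. SW480 mock was the lowest group and did not overlap HT29 mock or SW480 ERβ. The log2 difference was -0.80 between the mock lines (SE 0.28, adjusted p = 0.0202) and 1.06 for ERβ in SW480 (SE 0.28, 0.00369), and the ERβ effects differed by 1.25 (SE 0.39, 0.0355). All 3 calls were lost with the libraries centered (0.0705, 0.0960 and 0.302), and that between the mock lines also without HT29 mock replicate 3 (0.0754) or SW480 mock replicate 1 or 2 (0.117 and 0.124). The call of the difference between the effects was lost in 8 of 18 alternatives, among them the fits without HT29 mock replicate 3, HT29 ERβ replicate 2 or 3, SW480 mock replicate 1 or 2 or SW480 ERβ replicate 3 (0.0699 to 0.128).

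In the window of IRF3, on the minus strand of chromosome 19, the strongest site lay 12.6 kb upstream, in an intron of PRMT1, an arginine methyltransferase gene whose own start was 1229 bp away. HT29 mock read 8.65, 5.22 and 4.35 (6.07 ± 2.27) and HT29 ERβ read 7.54, 4.03 and 4.75 (5.44 ± 1.86). SW480 mock read 0.674, 1.70 and 1.95 (1.44 ± 0.677) and SW480 ERβ read 2.48, 4.50 and 4.01 (3.67 ± 1.05). Neither HT29 mock nor SW480 ERβ overlapped SW480 mock, the lowest group, which stood 2.45 times over its input. Between the mock lines the signal was lower in SW480 by -1.53 on the log2 scale (SE 0.37, adjusted p = 0.000771), and the call held in all 15 alternatives (at most 0.0244). Between the ERβ lines the difference was -0.45 (95% interval -1.19 to 0.28, 0.341), and -0.73 with the libraries centered (0.00444).

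ERβ in SW480 gave 0.95 at this site (95% interval 0.22 to 1.68, adjusted p = 0.0571). It was called in 7 of 15 alternatives, among them the block (0.000116) and the fit without SW480 ERβ replicate 1 (0.0211). ERβ in HT29 gave -0.13 (-0.86 to 0.61, 1), and the difference of the effects was 1.08 (0.167). IRF3 itself had a weak site in an intron 957 bp from its start. It read 2.495, 0.856 and 1.16 in HT29 mock, 0.920, 1.72 and 1.33 in HT29 ERβ, 0.641, 0.981 and 1.40 in SW480 mock and 1.48, 2.42 and 2.74 in SW480 ERβ, the only group in which it was listed. The SW480 groups did not overlap, while both overlapped the HT29 groups. ERβ in SW480 gave 0.67 there (adjusted p = 0.0796, or 0.0047 with the block).

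**Figure D4:**
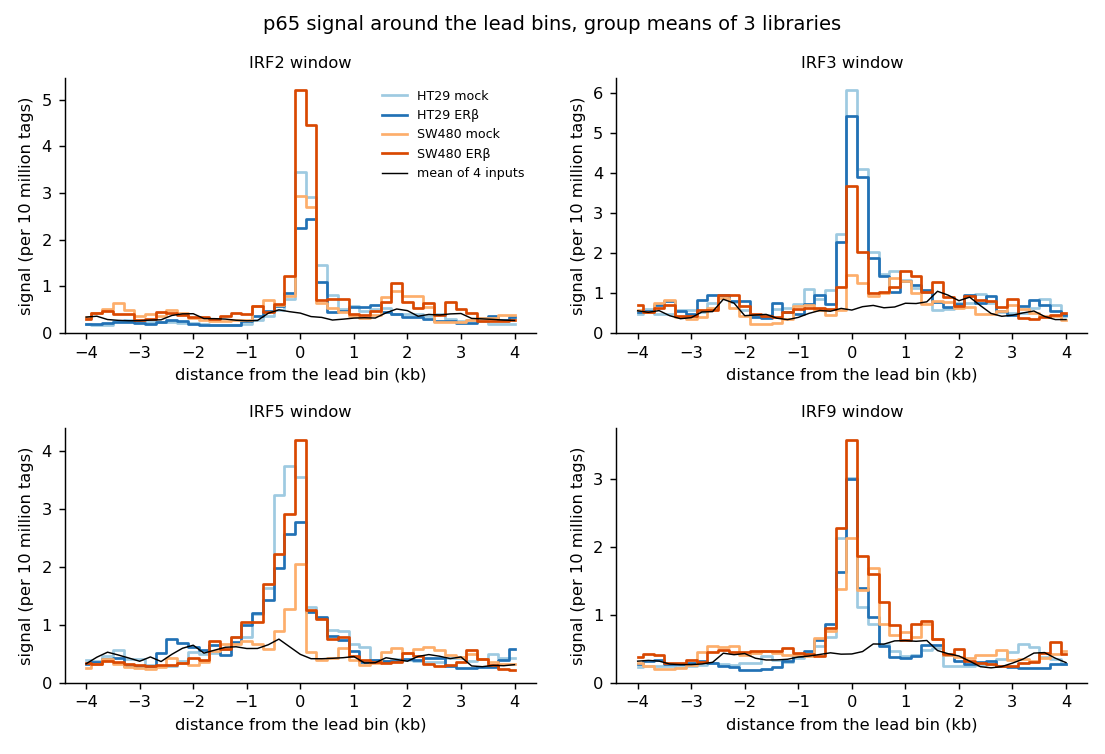
Group means of the p65 signal (per 10000000 tags) per 200-bp bin around the lead bins of the IRF2, IRF3, IRF5 and IRF9 windows, against distance from the lead bin in kb, with the mean of the 4 inputs in black. In the IRF3 window the HT29 groups are highest (6.07 and 5.44) and SW480 mock is lowest (1.44), and at IRF2 SW480 ERβ is highest (5.21).

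IRF5, on the plus strand of chromosome 7, had 1 site, 3 listed bins in an intron near its start. The lead bin, 973 bp from the start and holding a κB match, read 4.15, 3.54 and 2.96 in HT29 mock (3.55 ± 0.596) and 3.66, 1.84 and 2.80 in HT29 ERβ (2.76 ± 0.911). It read 1.33, 2.74 and 2.04 in SW480 mock (2.04 ± 0.704) and 2.31, 6.11 and 4.14 in SW480 ERβ (4.19 ± 1.90). SW480 mock lay below HT29 mock without overlap, and SW480 ERβ overlapped each of the other groups. The log2 difference between the mock lines was -0.60 (95% interval -1.30 to 0.10, adjusted p = 0.192), although the neighboring bins from 128938401 and 128938601 were called lower in SW480 mock, at -1.10 and -0.98 (SE 0.32 and 0.34). The first call was lost without HT29 mock replicate 1 (adjusted p = 0.0739), and the second without it (0.182), without replicate 1 of both HT29 groups (0.0858) or without SW480 mock replicate 1 or 3 (0.0847 and 0.0641). ERβ gave 0.73 in SW480 (0.03 to 1.43, 0.129, or 0.00272 with the block) and -0.30 in HT29 (-0.998 to 0.41, 1). Of the 7 tested bins of the window, 1 that was listed in no group was called higher with ERβ in SW480. The difference between the ERβ lines was 0.42 (-0.28 to 1.13, 0.355).

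The IRF9 window, on chromosome 14, held 2 sites, neither at IRF9. They lay at PSME1 and PSME2, neighboring genes for subunits of an interferon-inducible proteasome activator. The lead bin, 110 bp inside PSME2 and 14.8 kb upstream of IRF9, read 4.34, 2.78 and 1.93 in HT29 mock (3.02 ± 1.23), 4.09, 2.89 and 2.04 in HT29 ERβ (3.01 ± 1.03), 1.53, 2.40 and 2.49 in SW480 mock (2.14 ± 0.531) and 2.11, 5.06 and 3.59 in SW480 ERβ (3.59 ± 1.48). All groups overlapped, and no difference was called. The largest was 0.51, for ERβ in SW480 (95% interval -0.19 to 1.20, adjusted p = 0.284, or 0.0344 with the block). At the start of IRF9 itself the means were 0.440, 0.323, 0.749 and 0.805 in HT29 mock, HT29 ERβ, SW480 mock and SW480 ERβ, too low to be tested.

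The PSME1 site, 24.8 kb upstream of IRF9, read 3.62, 2.54 and 2.41 in HT29 mock (2.86 ± 0.666), 1.88, 0.897 and 0.998 in HT29 ERβ (1.26 ± 0.541), 1.57, 1.01 and 1.43 in SW480 mock (1.34 ± 0.293) and 1.22, 4.78 and 4.70 in SW480 ERβ (3.57 ± 2.03). HT29 ERβ lay wholly below HT29 mock. In SW480, 2 of the 3 ERβ libraries were above all mock libraries and replicate 1 was not. The ERβ effects differed by 1.63 (SE 0.46, adjusted p = 0.0187), and SW480 ERβ exceeded HT29 ERβ by 0.92 (SE 0.32, 0.0175). ERβ in SW480 gave 0.85 (0.0521, or 0.000717 with the block). The call between the ERβ lines was lost without HT29 ERβ replicate 2 or 3 (0.0839 and 0.0635) or SW480 ERβ replicate 2 or 3 (0.147 and 0.144), and that of the difference in 7 of 19 alternatives, among them the centered libraries (0.0730) and the fits without HT29 ERβ replicate 2 or 3, SW480 mock replicate 2 or SW480 ERβ replicate 2 or 3 (0.0557 to 0.0863).

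**Figure D5:**
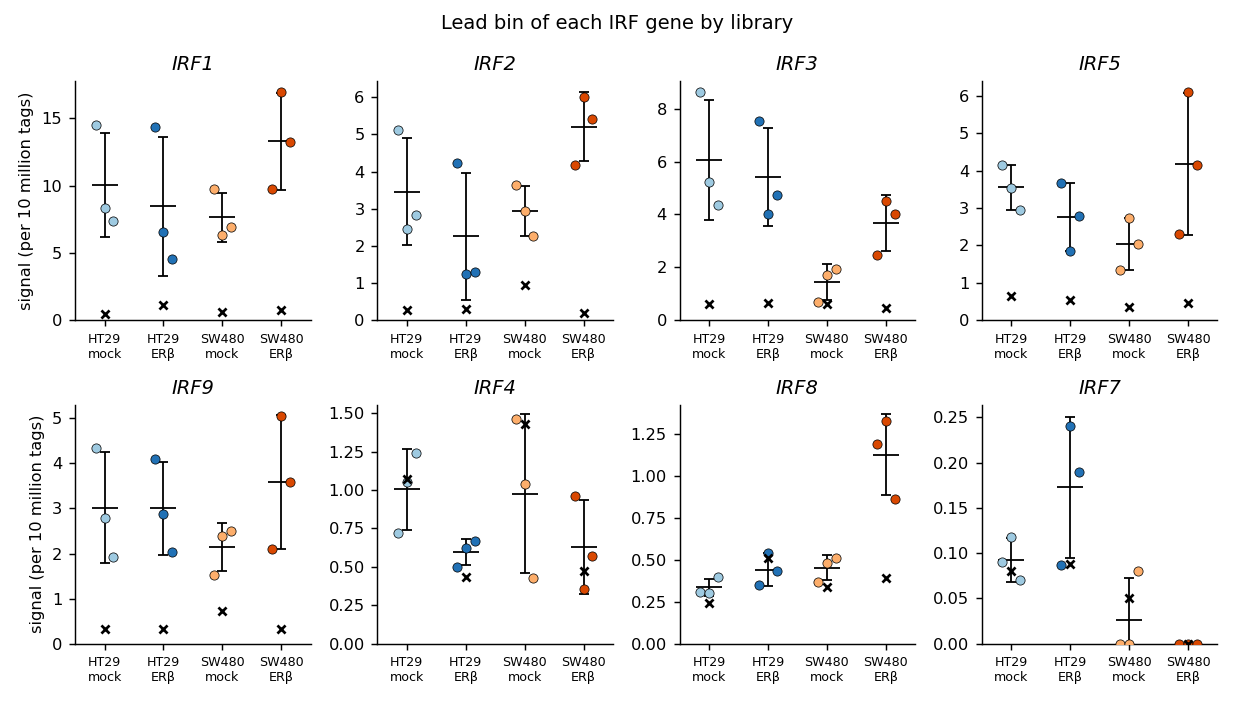
Signal (per 10000000 tags) in the lead bin of each of the 8 genes for every ChIP library (points), with the mean and SD of the 3 libraries of a group (bars) and the input (crosses). The vertical scale differs between genes: IRF1 reaches 17.0 and IRF3 8.65, while the group means of IRF8 stay at or below 1.13 and those of IRF4 at or below 1.00.

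IRF4, IRF8 and IRF7 had no listed bin and none tested in the main fit. In the window of IRF4, on chromosome 6, the highest bin had means of 1.00, 0.596, 0.977 and 0.629 in HT29 mock, HT29 ERβ, SW480 mock and SW480 ERβ, beside inputs of 1.07, 0.434, 1.43 and 0.470, so that no group exceeded its input by as much as 1.5 times. In that of IRF8, on chromosome 16, the highest bin lay 262 bp upstream of the start and held a κB match. It read 0.310, 0.300 and 0.396 in HT29 mock, 0.348, 0.540 and 0.436 in HT29 ERβ, 0.370, 0.479 and 0.512 in SW480 mock and 1.19, 1.33 and 0.860 in SW480 ERβ. All 3 SW480 ERβ libraries stood above the other 9 at a mean of 1.13, which was 2.89 times the input and below the listing limits. The window of IRF7, on chromosome 11, carried almost no mapped signal in any library: 59.1% of its bins were empty in all 16 and the window mean of the inputs was at most 0.0097, so p65 binding at IRF7 cannot be read from these tracks.

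The other genes of the interferon pathway, 25 in number, were read in the same way and 18 of their lead bins were tested. Between the mock lines none was higher in SW480 and 4 were lower: IFNB1, IFNAR2, IFNGR1 and JAK1, 22.2% against 24.5% of all tested bins. The IFNB1 bin was listed in no group and passed the filter for testing only through its level in HT29 mock. Its call, counted in the 22.2%, is therefore not read as a result. The bins of IFNAR2, IFNGR1 and JAK1 lay 25.6 kb upstream, 18.3 kb upstream and 50.4 kb downstream of the main starts of these genes. Between the ERβ lines IFNGR2, TYK2, IRF2BP1 and IRF2BPL were higher in SW480 (22.2% against 30%) and IFNGR1 lower (5.56% against 9.95%). With ERβ, none was called in HT29, and IFNAR2, IRF2BP1 and IRF2BPL were higher in SW480, 16.7% against 18.8%. With the block, 16 of the 18 were called for ERβ in SW480 and 16 for the difference of the effects, against 47.8% and 40.2% of all tested bins. The median log2 difference for ERβ in SW480 was 0.79 over these 18 and 0.71 over the 5 IRF lead bins, against 0.43 over all tested bins, and for ERβ in HT29 -0.15 and -0.30 against -0.11. Lead bins are the highest of their windows, so these medians stand at unlike signal levels. Over all tested bins with a mean of at least 1.5 the medians were 0.57 in SW480 and -0.16 in HT29. The part of the signal level was not tested.

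Of these genes, 4 of those with the most signal are described. At 20.1 kb upstream of IFNGR2, a chain of the interferon gamma receptor, the lead bin read 11.6, 5.54 and 7.92 in HT29 mock, 9.72, 5.33 and 5.46 in HT29 ERβ, 7.08, 7.85 and 11.99 in SW480 mock and 14.1, 21.3 and 20.03 in SW480 ERβ. Of the bins of its window, 59.4% were empty in all 16 libraries, so that the window was read only in part. SW480 ERβ stood above the other groups and was 1.34 higher than HT29 ERβ (SE 0.38, adjusted p = 0.00289, at most 0.0249 in 15 alternatives). Its ERβ effect in SW480 was 0.98 (0.0575, or 0.000101 with the block). In the window of IRF2BPL, which encodes a paralog of a corepressor that binds IRF2, the lead bin lay 5.39 kb upstream. It had means of 5.46, 4.67, 5.83 and 13.6 in HT29 mock, HT29 ERβ, SW480 mock and SW480 ERβ and was 1.43 higher in SW480 ERβ than in HT29 ERβ (SE 0.39, 0.00191). Its ERβ effect in SW480 was 1.08 (SE 0.39, 0.0406) and was lost in 8 of 15 alternatives, among them each fit without a SW480 mock replicate (0.0511 to 0.159) or without SW480 ERβ replicate 2 or 3 (0.211 and 0.154). The start of IFIH1, a sensor of double-stranded RNA, had means of 7.17, 5.92, 3.21 and 7.47, and a bin of the STAT2 window near the start of PAN2 had means of 4.67, 4.73, 4.36 and 8.51. Neither was called in any comparison without the block. With it, the adjusted p for ERβ in SW480 was 5.85e-05 at IFIH1 and 0.00204 in the STAT2 window, and that for the difference of the effects 0.00032 and 0.0438.

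Larger differences were found in the windows of 2 receptor genes that were named after their values were seen. IFNAR2, a chain of the type I interferon receptor, had a lead bin 25.6 kb upstream of its main start that read 12.3, 5.91 and 6.52 in HT29 mock, 10.5, 6.995 and 4.22 in HT29 ERβ, 0.829, 0.920 and 1.27 in SW480 mock and 3.48, 7.23 and 6.24 in SW480 ERβ. This bin, from 33204201 to 33204400, lay just outside the annotated extent of the gene, which begins at 33205282. SW480 mock lay below the other 3 groups, which overlapped. Its ERβ effect in SW480 was 1.69 (SE 0.38, adjusted p = 0.000713), and the 2 mock lines differed by -2.14 (SE 0.38), a call kept in 15 alternatives (at most 0.000199). IFNGR1, the other chain of the interferon gamma receptor, had a lead bin 18.3 kb upstream with means of 7.59, 6.25, 0.745 and 1.41 in HT29 mock, HT29 ERβ, SW480 mock and SW480 ERβ, and the SW480 groups were lower by -2.17 in mock and -1.51 in ERβ cells. At the start of IFNGR1 itself the means were 0.887, 0.628, 1.56 and 1.38 in the same order, and the bin was listed in no group.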

How the data were processed

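The deposited files are HOMER tracks of coverage signal. Per the study's methods and the file headers, the authors aligned unique reads with STAR to GRCh38 (hg38) and wrote tag density scaled to 10000000 tags with 100-bp fragments. Track names carry a mark read here as 1 tag per position, stretches below 0.05 are absent, and version numbers are not given in the sources used here. The signal was averaged in 200-bp bins (Python 3.11.15, numpy 2.4.6, pandas 2.3.3), and gene positions came from GENCODE 44. Input was used to list and filter bins and was not subtracted. The tracks hold no read counts, so limma 3.58.1 (R 4.3.3) with a mean-variance trend on log2(signal + 1) replaced a count test, on all 12 ChIP libraries, two-sided, with Benjamini-Hochberg adjustment over all 25545 tested bins and a threshold of 0.05. Intervals are 95% and unadjusted.

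The main design had no replicate block. Same-numbered libraries of one line deviated together (correlations of 0.485, 0.187 and 0.195 in HT29 and 0.261, 0.105 and 0.164 in SW480), so the numbers were taken to pair mock and ERβ libraries within a line, although HT29 mock 2 also correlated with HT29 ERβ 3 (0.213) and HT29 mock 3 with HT29 ERβ 2 (0.143). Values with the block are given where they change a call named in the text. Alternatives were another pseudocount, filter, scaling, input correction, bin phase, the compared groups alone and each library left out; leaving out replicate 1 of both HT29 groups was added after the data were seen. On simulated data for SW480 ERβ against SW480 mock over 25545 bins, a log2 change of 1 was recovered at 29% of bins and 2 at 85%, with 3 false calls. These data had independent normal noise, 100 bins changed by each amount and no shift shared by a library. In the real comparison 18.8% of bins were called and the median difference was 0.43, so the rates need not hold there. The named genes are the 8 members with every site, and the 5 of 25 other pathway genes with the highest lead bin, of which 1 is not reported here. Further genes and bins were named after their values were seen. The members and gene lists were chosen with earlier results of these data known. Sequences were read from the GRCh38 reference (pysam 0.24.0). The 3 ChIP replicates are called biological in the methods, and nothing says whether they came from separate cultures, so p-values measure the spread between these libraries.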

Additional observations from a re-analysis of the deposited data

Results flagged for a closer look

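Differences between the ERβ effect in SW480 and that in HT29 (SW480 minus HT29, log2 scale, limma, adjusted over all tested bins) passed the threshold at the following places, where the test is of the difference itself. At the bin 6.33 kb upstream of IRF1 (chr5:132497001-132497200) it was 1.98 (adjusted p = 0.0150, 2.34e-07 to 0.0756 over 19 alternatives). At the adjoining bin of IRF1 (chr5:132497201-132497400) it was 1.67 (0.0345), with means of 3.96 in HT29 mock, 3.22 in HT29 ERβ, 2.06 in SW480 mock and 7.57 in SW480 ERβ, and the call was lost in 10 of 19 alternatives, among them the fits without any 1 of HT29 mock replicate 1, HT29 ERβ replicates 2 and 3, the 3 SW480 mock replicates and SW480 ERβ replicates 2 and 3 (0.0652 to 0.110). Beyond the 3′ end of IRF2 (chr4:184383601-184383800), at a site chosen through its listing in SW480 ERβ alone, it was 1.25 (0.0355, 0.000377 to 0.302 over 18 alternatives). At the PSME1 intron in the IRF9 window (chr14:24136401-24136600) it was 1.63 (0.0187, 1.85e-05 to 0.0863 over 19 alternatives). At the lead bin of IFNAR2 it was 1.86 (0.0238, 1.47e-06 to 0.111 over 20 alternatives, lost in 8, among them the fits without HT29 mock replicate 1, HT29 ERβ replicate 2 or 3, SW480 mock replicate 1 or 2 or SW480 ERβ replicate 2 or 3). The IRF windows held 5 such calls among 52 tested bins, 9.62%: the 4 given here and 1 in a bin of the IRF2 window that was listed in no group. IFNAR2 was 1 of the 18 tested lead bins of the other pathway genes, 5.56%. Over all 25545 tested bins there were 1812 such calls, 7.09%, and the median difference was 0.56.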

How the results depend on the processing

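Calls here are by limma at an adjusted p of 0.05. A call held in every alternative run for IRF3 between the mock lines (15 alternatives) and for the IRF1 bin 31.5 kb downstream between the lines (14). Between the mock lines it also held for the IRF1 bin from 132491401 (14) and the lead bins of IFNAR2 and IFNGR1 (15 each). Between the ERβ lines it held for the IRF1 bin 6.33 kb upstream (14) and the lead bins of IFNGR2 and IRF2BPL (15 each). The calls at the IRF1 bin 15.3 kb downstream held too (14). That site was chosen through SW480 ERβ, so they give no separate support. Bins that a setting leaves untested gave no value there. The number of reads behind the tracks is unknown here.

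Some counts moved by more than 1.5 times. Over all tested bins, a filter at a mean of 1.5 left 10666 tested. It gave 3801 calls between the mock lines (35.6%), 4502 between the ERβ lines (42.2%) and 0 for ERβ in HT29. It gave 2479 for ERβ in SW480 (23.2%) and 866 for the difference of the ERβ effects (8.12%). The shares of the main fit were lower, at 30.9%, 39.9%, 18.8% and 7.09%. A mean of 0.5 with no input limit gave 283099 (24.7%), 251264 (21.9%), 7 (HT29) and 1142 (difference, 0.0996%) among 1146534 tested. In HT29 all bins gave 1 call with the libraries centered or the groups alone, 9 with the replicate block and 0 with the 10-kb input taken off, the bins shifted by 100 bp or HT29 replicate 1 left out of both groups. For ERβ in SW480 all bins gave 1615 calls centered, 7270 with the input taken off, 12223 with the block and 8889 without HT29 replicate 1. For the difference they gave 275, 4193, 10268 and 3418 in that order. Among the 52 bins of the IRF windows the counts for ERβ in SW480 were 5 centered (9.62% against 6.32% of all bins), 22 with the input taken off (42.3% against 28.5%), 36 with the block (69.2% against 47.8%), 23 with the groups alone (44.2% against 27.3%, or 6979 bins) and 30 without HT29 replicate 1 (57.7% against 34.8%). For the difference they were 1 (1.92% against 1.08%), 13 (25% against 16.4%) and 31 (59.6% against 40.2%), with 12 without HT29 replicate 1 (23.1% against 13.4%). With the loose filter, which tested 456 bins in the IRF windows, these gave 50 calls between the mock lines (11% against 24.7% of all bins) and 63 between the ERβ lines (13.8% against 21.9%), 10 for ERβ in SW480 (2.19% against 0.503%) and 4 for the difference (0.877% against 0.0996%). Without HT29 replicate 1, 28 of the 52 were called between the ERβ lines (53.8% against 50.2%). Of the lead bins, 3 were called between the ERβ lines with the loose filter (21.9% of all tested bins). There were 2 when centered (49.8%) and 2 without HT29 replicate 1 (50.2%). For ERβ in SW480, 1 lead bin (IRF3) was called with a pseudocount of 0.5 (19.3%), the stricter filter (23.2%), the input taken off (28.5%) or the groups alone (27.3%). There 4 were called without HT29 replicate 1 (34.8%) and 5 with the block (47.8%). For the difference 4 were called with the block (40.2%) and 1 without HT29 replicate 1 (13.4%). Listed bins fell to 7 in HT29 ERβ and 2 in SW480 mock at 6 times input, and to 18 in SW480 ERβ at a mean of 3. The block changed no IRF lead-bin call other than those named.

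Leaving out 1 library of the groups compared at a time gave 4556 to 8031 calls over all bins between the mock lines, 7771 to 10978 between the ERβ lines, 0 to 3 for ERβ in HT29, 2147 to 8496 for ERβ in SW480 and 595 to 6418 for the difference. For the IRF windows the ranges were 7 to 16, 9 to 21, 0 to 0, 4 to 25 and 0 to 22, and for the lead bins 1 to 1, 0 to 2, 0 to 0, 0 to 2 and 0 to 3. Listed bins ranged from 15 to 23 in HT29 mock, 7 to 17 in HT29 ERβ, 6 to 9 in SW480 mock and 28 to 36 in SW480 ERβ.

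Lead-bin differences that changed sign were all uncalled, and over the single libraries left out they ranged as follows: IRF2 between the mock lines -0.31 to 0.10, IRF9 between the ERβ lines -0.053 to 0.43, and for ERβ in HT29 IRF1 -0.72 to 0.011, IRF3 -0.35 to 0.12 and IRF9 -0.20 to 0.24. Between the mock lines IRF2 became 0.16 centered, 0.047 with shifted bins and 0.10 without HT29 mock replicate 1, alone or with that of HT29 ERβ. For ERβ in HT29, IRF1 became 0.011 without HT29 ERβ replicate 3, IRF3 0.12 without HT29 mock replicate 1 and 0.033 without HT29 ERβ replicate 2, and IRF9 -0.27 with shifted bins, -0.013 and -0.20 without HT29 mock replicates 2 and 3 and -0.18 without HT29 ERβ replicate 1. Between the ERβ lines IRF9 became -0.11 centered, -0.00854 without HT29 ERβ replicate 3 and -0.053 without SW480 ERβ replicate 2, and its difference of effects -0.091 centered. The cause was not tested.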
